A study of Homo sapiens with 4 samples.

Results

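The membrane-bound mucins MUC1, MUC4, MUC12, MUC13, MUC17 and MUC20 were followed across 4 expression arrays of T84, a colorectal carcinoma line of human origin whose cells polarise into an epithelial layer on permeable filters. All probe sets annotated to one of these 6 symbols and to no other gene were taken, which gave 19 of the 54675 probe sets on the array and 6 of 19775 genes. Cells of every group were seeded on filters and transfected with 15 pmol of short RNA, and whether that is the amount of a whole mix or of each member is unknown. The 4-miRNA cells received miR-338-3p, miR-451, miR-33a and also miR-210 and were collected on day 5, and the 2-miRNA cells received miR-338-3p and miR-451 alone and were also collected on day 5. The control cells received a short RNA with little homology to human miRNAs and were collected on day 7 or on day 5. Each group was 1 array, so there is no test across samples and no p-value, and precision is limited by how few arrays there are.

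Membrane mucins are apical glycoproteins anchored in the plasma membrane. Their long extracellular part is densely decorated with O-linked sugars, and together they form the glycocalyx that covers the microvilli of enterocytes. The extracellular part can be shed, and the short tail inside the cell can bind signalling or scaffold proteins. In the colon this layer lies beneath the gel made by the secreted mucin MUC2.

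The sequences of 3 transfected miRNAs are shown because the groups of day 5 differ by the miRNAs they received. The sequences are the mature human forms given by RefSeq on GRCh38.p14, with the seed, bases 2 to 8, in capitals. The labels give no arm for miR-210 and miR-33a, for which the 3p and 5p forms are shown. miR-451 was the remaining oligonucleotide of both mixes.
miR-338-3p (chr17:81125887-81125908, minus strand): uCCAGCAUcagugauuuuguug
miR-210-3p (chr11:568112-568133, minus strand): cUGUGCGUgugacagcggcuga
miR-33a-5p (chr22:41900949-41900969, plus strand): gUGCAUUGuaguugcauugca
None of these 3 shares its seed with another. Sites for them in the mucin transcripts were not analysed here.

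As deposited, the miRNA arrays were about as bright as each other and brighter than the controls, with trimmed means of 150 and 147 on the 4-miRNA and 2-miRNA arrays, against 74.3 and 76.6 on the day 7 and day 5 controls. Each array was therefore multiplied by 1 factor that set its 2% trimmed mean to 500, and all levels below are such scaled signals. Differences are log2 of scaled signal plus 32, which understates the difference of a dim probe set. A value was taken as readable when it reached its array's median over all probe sets, which was 81.7 and 87.3 on the 4-miRNA and 2-miRNA arrays, and 99.0 and 99.3 on the day 7 and day 5 controls. Markers of intestinal epithelium were readable on every array in 10 of 10 genes, with summed signals of 204200, 192820, 261049 and 191850 on the 4-miRNA, 2-miRNA, control day 7 and control day 5 arrays. Of the markers of other cells, 1 of 5 for fibroblasts (COL1A1), 2 of 4 for leukocytes (CD3E and LYZ) and 1 of 5 for endothelium (PECAM1) were readable on all 4 arrays. PTPRC, CD14, COL3A1, LUM, VWF, CDH5, KDR and CLDN5 were under the median of every array. The summed signal lay between 354 and 630 for the fibroblast list, between 301 and 714 for the leukocyte list and between 249 and 397 for the endothelial list. In RNA from a whole culture, fewer cells that express a gene and less of its RNA per cell cannot be told apart.

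Only MUC1, MUC13 and MUC20 could be read in all 4 groups. Of the 19 probe sets, 8 were readable on all arrays, namely both of MUC13, all 4 of MUC20 and 2 of the 3 of MUC1. Another 7 were under the median on some arrays, and 4 were too dim to read anywhere: MUC4 217110_s_at, 217109_at and 204895_x_at, and MUC12 231814_at. No probe set of MUC4, MUC12 or MUC17 was readable on more than 2 arrays. A suffix _x_at marks probe sets whose probes may also match other sequences, and _s_at those shared by several transcripts. RefSeq also lists a MUC20 pseudogene, MUC20P1, and signal from it cannot be told apart from that of MUC20 where sequences are shared.

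**Figure D1:**
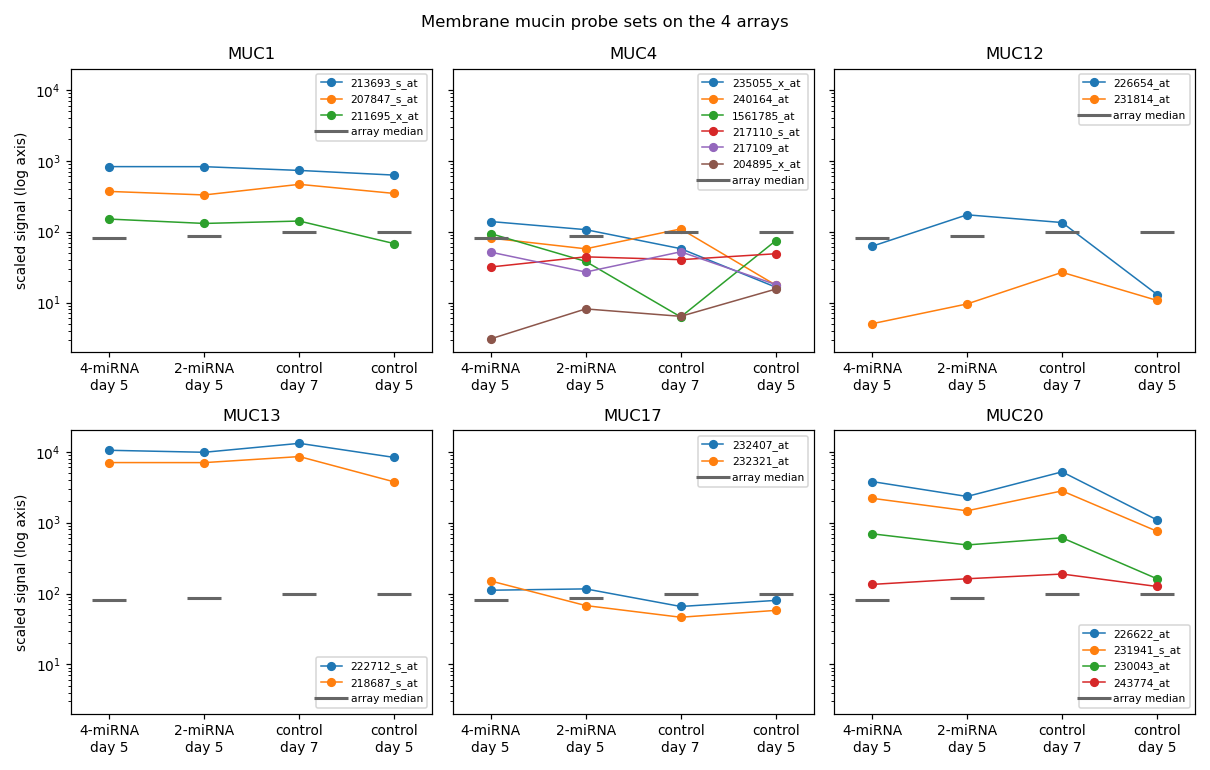
Scaled signal (log axis) of the 19 membrane mucin probe sets on the 4 arrays, 1 panel per gene, 1 line per probe set, with a grey bar at each array's median. The MUC13 and MUC20 probe sets sit above the bars on every array and are lowest on the day 5 control, while those of MUC4, MUC12 and MUC17 lie around or under the bars.

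MUC20, a mucin that binds the hepatocyte growth factor receptor MET, differed most among the 3 mucins readable in all groups. Its brightest probe set, 226622_at, read 3797 on the 4-miRNA array, 2339 on the 2-miRNA array, 5203 for the day 7 control and 1090 for the day 5 control. The second, 231941_s_at, read 2205, 1468, 2803 and 754 in the same order of arrays, and the third, 230043_at, read 696, 484, 611 and 161. The day 5 control was thus the lowest array for each of these probe sets. The dimmest, 243774_at, varied much less, with 134, 162, 188 and 126. For 226622_at the position among all probe sets of an array, which does not depend on the scaling, was 95.1 percent of the way up on the 4-miRNA array, 92.5 percent on the 2-miRNA array, 96.5 percent for the day 7 control and 86.2 percent for the day 5 control.

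The day 7 control exceeded the day 5 control by log2 differences of 2.22, 1.85 and 1.73 on the 3 brighter MUC20 probe sets and by 0.48 on 243774_at. The first of these, a 4.78-fold difference, was surpassed by 93 of 25335 readable probe sets. On the 4-miRNA array the same 3 probe sets exceeded the day 5 control by 1.77, 1.51 and 1.91, and 243774_at by 0.08. On the 2-miRNA array they exceeded it by 1.08, 0.93 (1.01 under running-median centring) and 1.42, and 243774_at by 0.30. All of these comparisons share the day 5 control array. Against the day 7 control the 4-miRNA array was at −0.45, −0.34 and 0.18 on the 3 brighter probe sets, and the 2-miRNA array at −1.14, −0.92 and −0.32. Between the mixes, the 4-miRNA array exceeded the 2-miRNA array by 0.69, 0.58 and 0.50, short of 2-fold, and 243774_at differed the other way by −0.22.

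MUC13, a mucin abundant on the intestinal surface, lay far above the array median in every group. Probe set 222712_s_at read 10480 on the 4-miRNA array, 9824 on the 2-miRNA array, 13133 for the day 7 control and 8301 for the day 5 control. Probe set 218687_s_at read 7032, 7022, 8544 and 3751 in that order. Both were lowest on the day 5 control and highest on day 7, and the mixes lay between the controls. The day 7 control exceeded the day 5 control by 0.66 on 222712_s_at and by 1.18 on 218687_s_at, so 1 of the pair passed 2-fold (2.28-fold) and the other did not (1.58-fold). The 4-miRNA array exceeded the day 5 control by 0.34 and 0.90, and the 2-miRNA array exceeded it by 0.24 and 0.90. Under running-median centring the 0.90 of the 2-miRNA array was 1.01, past 2-fold. The mixes differed from each other by 0.09 and 0.00, and the second value changed sign under quantile normalization (−0.01) and running-median centring (−0.03).

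MUC1, the mucin of most simple epithelia, whose tail binds β-catenin, could be read on all arrays with 2 of its 3 probe sets, which differed by under 2-fold of scaled signal in the 4 comparisons. Probe set 213693_s_at read 826 on the 4-miRNA array, 824 on the 2-miRNA array, 730 for the day 7 control and 627 for the day 5 control. Probe set 207847_s_at read 369, 329, 464 and 345 in that order. The third, 211695_x_at, read 150, 130, 141 and 67.6, the last value under the median of its array. The day 7 control exceeded the day 5 control by 0.21 and 0.40 on the first pair of probe sets. The 4-miRNA array exceeded the day 5 control by 0.38 and 0.09, and the 2-miRNA array differed from it by 0.38 and −0.06, a value that was 0.02 under running-median centring. For 211695_x_at only a bound can be given for the fold over the day 5 control, computed from the bright value and the dim array's median, of at least 1.51-fold on the 4-miRNA array, 1.31-fold on the 2-miRNA array and 1.42-fold on the day 7 control. Its log2 difference for the 4-miRNA array was 0.87, and passed 2-fold under quantile normalization (1.05) and running-median centring (1.04).

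MUC12, a mucin of the colonic brush border, was readable on its better probe set only on the 2-miRNA array and the day 7 control. Probe set 226654_at read 62.1 on the 4-miRNA array, 173 on the 2-miRNA array, 134 for the day 7 control and 13.0 for the day 5 control. Its log2 differences from the day 5 control were 2.19 on the 2-miRNA array and 1.89 on the day 7 control, but since the day 5 value is under the median, these stand for at least 1.74-fold and at least 1.35-fold. The 4-miRNA array was lower than the 2-miRNA array by a log2 difference of −1.12, at least 2.11-fold. The other probe set, 231814_at, read 5.02, 9.54, 26.7 and 10.7 and could not check this.

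MUC17, the brush border mucin that the scaffold PDZK1 holds at the apical surface, stayed near the limit. Probe set 232407_at read 111 on the 4-miRNA array, 116 on the 2-miRNA array, 65.6 for the day 7 control and 80.0 for the day 5 control. Probe set 232321_at read 150, 67.6, 46.2 and 57.8 in that order. The miRNA arrays were readable on the first and only the 4-miRNA array on the second. The first exceeded the day 5 control by at least 1.12-fold for the 4-miRNA mix and at least 1.17-fold for the 2-miRNA mix, and between the mixes it differed by −0.05, or 0.03 under quantile normalization. Against the day 5 control the second differed by 1.02 on the 4-miRNA array, a bound of at least 1.51-fold, and by 0.15 on the 2-miRNA array, where both values were under the median. Between the mixes the second was higher for the 4-miRNA cells by 0.87, at least 1.72-fold. The control arrays were under the median for both probe sets, so no difference between days could be read.

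MUC4, a large mucin with growth-factor-like domains that partners the receptor ERBB2, gave no stable reading. Probe set 235055_x_at read 139 on the 4-miRNA array, 107 on the 2-miRNA array, 57.5 for the day 7 control and 16.5 for the day 5 control. Probe set 240164_at read 81.0, 57.2, 109 and 17.6 in that order, and was readable on the day 7 control alone. Probe set 1561785_at read 93.8, 38.0, 6.26 and 74.6, readable on the 4-miRNA array alone. The first 2 were lowest on the day 5 control, and the third on the day 7 control. The log2 difference of 235055_x_at from the day 5 control was 1.82 for the 4-miRNA cells and 1.52 for the 2-miRNA cells, which stand for at least 1.40-fold and at least 1.07-fold. For 240164_at the day 7 control exceeded the day 5 control by 1.51, at least 1.10-fold, and for 1561785_at the 4-miRNA array exceeded the 2-miRNA array by 0.85, at least 1.07-fold. The 3 probe sets too dim on all arrays lay between 3.07 and 51.9.

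**Figure D2:**
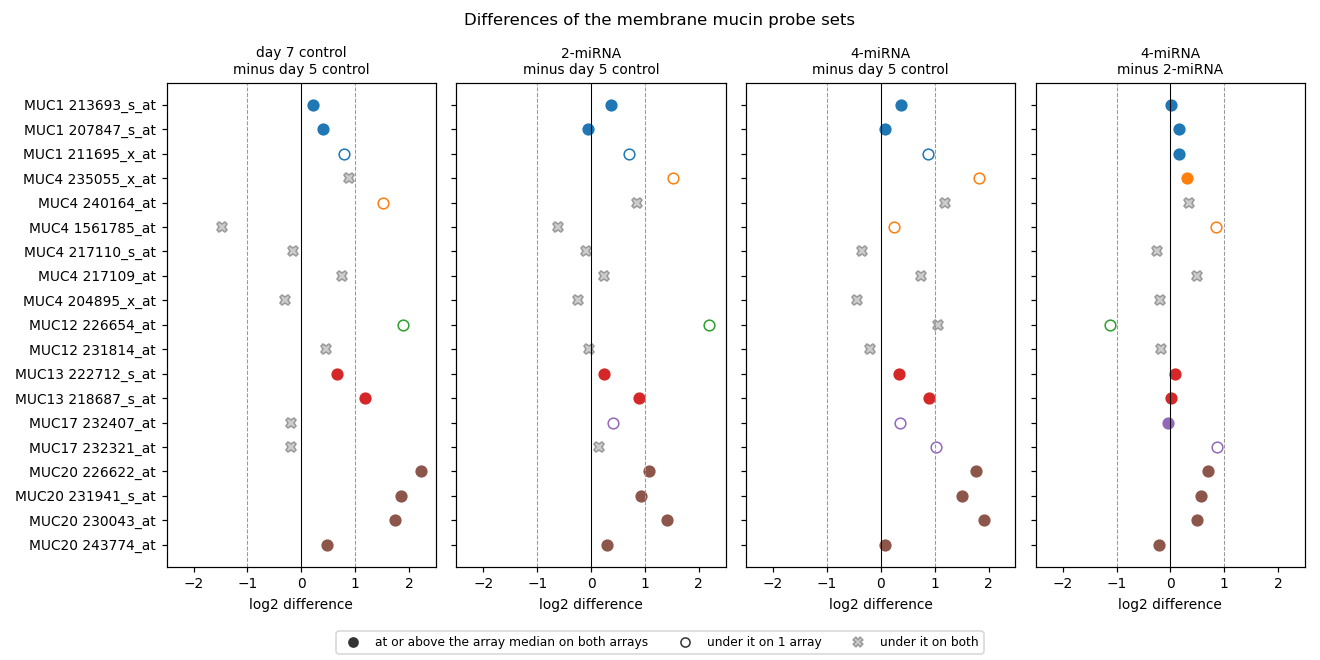
Log2 differences of the 19 probe sets in the 4 comparisons, with dashed lines at 2-fold; filled circles were at or above the array median on both arrays, open circles under it on 1 array, and grey crosses under it on both. Filled circles past the dashed line are the MUC20 probe sets and, on day 7, 1 of MUC13, and the open circles past it are MUC4, MUC12 and MUC17.

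Counted together, 6 of 11 readable membrane mucin probe sets were at least 2-fold higher on the day 7 control than on the day 5 control and 0 lower, beside 7.09% higher and 6.32% lower among all 25335 readable probe sets with 1 gene symbol. Of these 6, 4 were readable on both arrays (3 of MUC20 and 1 of MUC13), and the others were MUC12 226654_at and MUC4 240164_at with the bounds above. A probe set that is readable through 1 bright array was let in by that array, which favours a difference. Counts and medians over readable probe sets thus describe the list and support nothing. Among the 8 probe sets readable on all 4 arrays, 4 of them of MUC20, the median day 7 difference was 0.92. It was −0.00 over the 18484 probe sets of that kind, of which 1.82% were at least 2-fold higher. All 10 epithelial markers were also higher on day 7, with a median of 0.52, where 49.4% of all readable genes lay above 0. The part of this movement in the mucin differences was not tested.

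Against the day 5 control, 5 of 13 readable probe sets were at least 2-fold higher on the 4-miRNA array and 0 lower, beside 10.4% and 9.78% of all readable probe sets. On the 2-miRNA array 4 of 12 were at least 2-fold higher and 0 lower, beside 10.8% and 9.49%. Those readable on both arrays were 3 and 2 of these, all of MUC20. The members' medians were 0.87 and 0.80 for the 4-miRNA and 2-miRNA mixes, beside −0.13 and −0.12 over all readable probe sets. They include probe sets readable through 1 bright array. By the brightest probe set of each gene the medians were 0.38 and 0.74, beside −0.16 and −0.18 over all readable genes. Over the 8 always readable probe sets, 4 of them of MUC20, the median was 0.64 on both miRNA arrays, beside −0.11 over all probe sets of that kind. By brightest probe set MUC1, MUC13 and MUC20 were at 0.38, 0.34 and 1.77 on the 4-miRNA array. On the 2-miRNA array they were at 0.38, 0.24 and 1.08. Agreement within a gene was poorer here than for the control pair: over 2625 genes with a bright pair, the SD specific to a probe set was 0.58 against the day 5 control for either mix and 0.27 for day 7 against day 5. Brightness of the deposited values and miRNA treatment coincide, so they cannot be told apart. Of the epithelial markers, 8 of 10 were higher for the 4-miRNA mix than for the day 5 control, with a median of 0.31, and 7 of 10 for the 2-miRNA mix, with a median of 0.23. Of all readable genes, 40.8% and 40.1% lay above 0 in these comparisons. The leukocyte list's LYZ, which epithelia can also express, was higher by 1.78 and 1.86 for these mixes. Their part in the mucin differences was not tested.

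Between the mixes, 0 of 14 readable probe sets were at least 2-fold higher on the 4-miRNA array and 1 was lower (MUC12 226654_at), beside 2.7% and 3.03% of all readable probe sets. Of those 14, 11 lay above 0 and 3 below, beside 48.8% above 0 over all readable probe sets. MUC1 213693_s_at and MUC13 218687_s_at, above 0 at 0.00, and MUC17 232407_at, below it at −0.05, changed sign under quantile normalization. The median was 0.16, beside −0.01 over all.

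**Figure D3:**
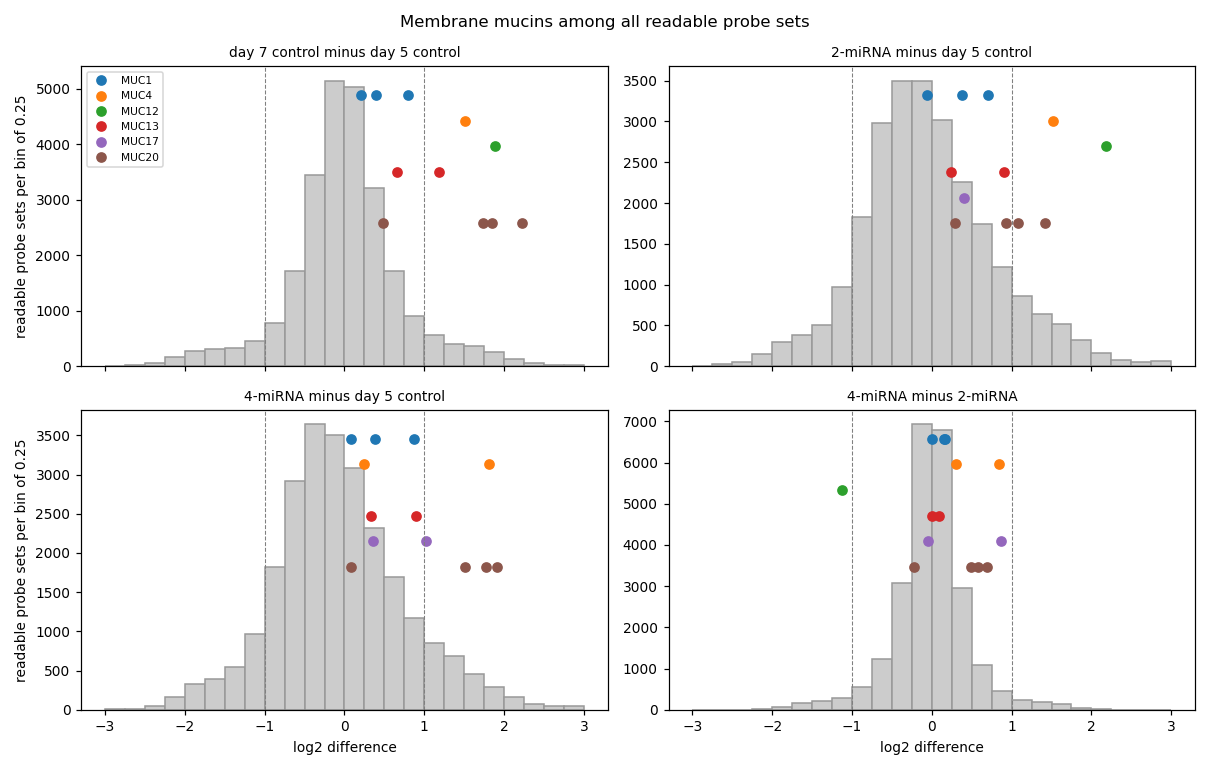
Number of readable probe sets per bin of log2 difference (grey bars, end bins hold everything beyond) in the 4 comparisons, with the readable membrane mucin probe sets as coloured points at arbitrary heights. In the panel of day 7 minus day 5 all mucin points lie above 0. In the panel of the mixes 11 of 14 lie above 0, the highest at 0.87 (MUC17), and the lowest is MUC12 at −1.12.

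The genes whose pattern was most like that of MUC20 were sought among 6893 genes at or above the 75th percentile of every array, by the Euclidean distance between log2 profiles over the 4 arrays after subtracting each profile's mean. MUC20 alone among the mucins had a brightest probe set that was readable everywhere and ranged over at least 2-fold. The nearest were ALDOC, which encodes the glycolytic enzyme aldolase C (distance 0.45), NDRG1, which encodes a cytoplasmic protein of the NDRG family (0.46), and LCN15, which encodes a lipocalin (0.53). The median distance of all candidates was 1.77. ALDOC read 3404, 2795, 4057 and 1122 on the 4-miRNA, 2-miRNA, control day 7 and control day 5 arrays, so it too was lowest on the day 5 control and highest on day 7. With 4 arrays such a likeness is a description.

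**Figure D4:**
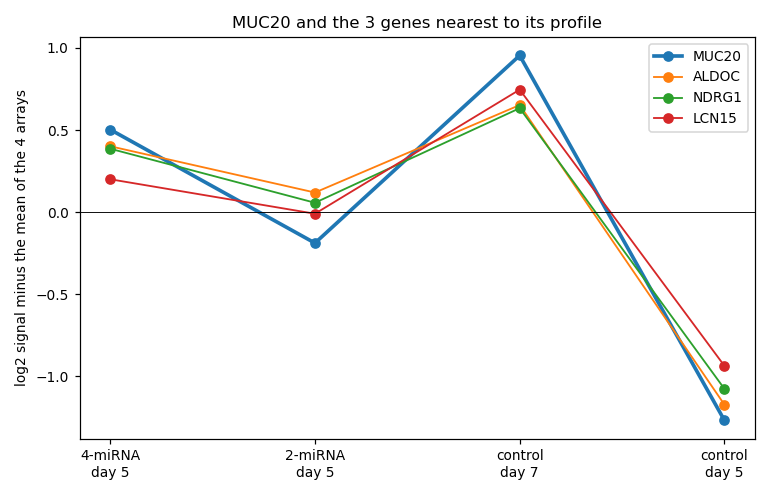
Log2 signal minus the mean of the 4 arrays for MUC20 (226622_at) and the 3 genes nearest to its profile, with lines joining the arrays of the same probe set. All are highest for the day 7 control and lowest for the day 5 control, and MUC20 has the widest range, from 0.95 to −1.27.

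In RefSeq's gene order MUC20 lies beside MUC4 on chromosome 3, and MUC12 lies between MUC3A and MUC17 on chromosome 7. MUC3A, a membrane mucin outside the group, read 434 on the 4-miRNA array, 380 on the 2-miRNA array, 565 for the day 7 control and 499 for the day 5 control on an _x_at probe set, within 2-fold in every comparison. Of the other membrane mucins listed with it, MUC15, MUC16 and EMCN were under the median of every array. Among secreted gel-forming mucins, MUC2 read 595 and 497 on the 4-miRNA and 2-miRNA arrays, against 1265 and 908 on the day 7 and day 5 controls, so its lower values lay on the miRNA arrays, and its difference was −0.58 and −0.83 against day 5. MUC2 on day 7 exceeded day 5 by 0.46.

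The 250 bases before the start of MUC13 and MUC1 are shown because these are the readable genes with a promoter in the RefSeq table used here, and they differ in how much they varied. They come from GRCh38.p14 and were searched on both strands for 5 motifs: ACGTG (core of the hypoxia response element), AGATAA (the motif of the zinc-finger family named GATA), TTCNNNGAA (STAT factors), GGGCGG (the GC box of SP and KLF factors) and TTTATNG (CDX factors). Capitals mark the matches.
MUC13 (chr3:124934752-124935001, minus strand): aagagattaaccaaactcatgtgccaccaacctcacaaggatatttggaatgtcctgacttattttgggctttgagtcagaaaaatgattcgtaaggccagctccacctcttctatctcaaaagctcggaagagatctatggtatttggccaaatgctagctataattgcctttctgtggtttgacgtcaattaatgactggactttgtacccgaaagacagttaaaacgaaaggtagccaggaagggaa
MUC1 (chr1:155192916-155193165, minus strand): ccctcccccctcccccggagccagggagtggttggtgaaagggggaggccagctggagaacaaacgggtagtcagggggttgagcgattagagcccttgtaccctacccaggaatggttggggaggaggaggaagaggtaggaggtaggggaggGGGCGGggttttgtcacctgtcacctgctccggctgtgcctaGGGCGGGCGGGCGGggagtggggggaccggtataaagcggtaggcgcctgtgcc
The MUC13 window held none of the 5 motifs and was 41.6% G and C, beside a median of 58% over 35116 promoters. The MUC1 window was 66.0% G and C and held GGGCGG with first bases at −96, −54, −50 and −46 from the start, the last 3 overlapping, and 42.6% of all windows hold that motif. Of the other motifs, ACGTG was in 18.5% of all windows, AGATAA in 9.17%, TTCNNNGAA in 6.57% and TTTATNG in 8.93%. Of the dim genes, MUC4 held TTCNNNGAA and GGGCGG, MUC12 held TTTATNG and MUC17 held none. A match is a run of letters and no shown site of binding.

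Genes that build the sugars of mucins, cut mucins from the cell or bind them were counted by the brightest probe set of each gene, beside all readable genes. Of those, 6.44% were at least 2-fold higher and 5.34% lower on day 7 against day 5, 9.35% and 9.95% on the 4-miRNA array against day 5, 9.28% and 9.58% on the 2-miRNA array against day 5, and 2.51% and 2.54% on the 4-miRNA against the 2-miRNA array. Of the 6 mucin genes counted in this way, 2 of 4 readable were at least 2-fold higher on day 7 (MUC20 and MUC12), 2 of 5 on the 4-miRNA array (MUC20 and MUC4) and 3 of 6 on the 2-miRNA array (MUC20, MUC12 and MUC4), each against the day 5 control. MUC4 and MUC12 were under the median of the day 5 control, counted only through the brighter array, and have bounds under 2-fold. These counts thus describe the list and support nothing. Among the mucin genes readable on all 4 arrays, 1 of 3 (MUC20) was higher in each of these comparisons. Of all probe sets of that kind, 1.82%, 7.79% and 8.11% were higher on day 7, the 4-miRNA array and the 2-miRNA array. The lists were chosen with earlier results of these arrays known.

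Few of the GalNAc transferases, which attach the first sugar of an O-glycan, passed 2-fold, beside the shares of all readable genes given above. On the 4-miRNA array 1 of 15 readable genes was at least 2-fold higher than on the day 5 control and 2 were lower, and on the 2-miRNA array 1 of 13 was higher and 2 lower, with medians of −0.00 and −0.17. GALNT3 read 7773 on the 4-miRNA array, 6964 on the 2-miRNA array, 6333 for the day 7 control and 3259 for the day 5 control. Its differences from the day 5 control were 1.25, 1.09 and 0.95 for the first 3 arrays, while its other probe set, under the median on 3 arrays, lay on the other side with −1.10, −0.84 and −0.20. GALNT6 was lower on both of its probe sets: the brighter read 660 and 629 on the 4-miRNA and 2-miRNA arrays, against 1496 on the day 5 control (−1.14 and −1.21), and the other gave −1.26 and −0.94. GALNT8, on a single probe set, was lower, at −1.11 and −1.32. On day 7, 1 of 13 was at least 2-fold higher (GALNT13, at least 1.55-fold) and 0 lower, with a median of −0.04. Between the mixes 0 of 15 passed 2-fold in either direction.

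Among 9 readable enzymes that extend O-glycan cores, 3 were at least 2-fold higher on the 4-miRNA array than on the day 5 control and 1 was lower, and on the 2-miRNA array 1 was higher and 1 lower. GCNT3, which makes the core branches of mucin sugars, read 2402 on the 4-miRNA array, 1764 on the 2-miRNA array, 1374 for the day 7 control and 945 for the day 5 control. Its difference from the day 5 control was 1.32 for the 4-miRNA cells and 0.88 for the 2-miRNA cells. B4GALT4, a galactosyltransferase, differed by 1.41 and 1.65 on the same arrays, but by 0.39 and 0.20 on its other probe set. B4GALT1, of the same family, was at 1.06 on the 4-miRNA array, and the other probe set readable in that comparison was at −0.25. B3GNT7, which extends glycan chains, was lower on the 4-miRNA array, at least 2.41-fold, and B3GNT6, which makes the core of colonic mucin sugars, was lower on the 2-miRNA array, at least 1.67-fold. No gene of this list reached a log2 difference of 1 between days. B3GNT6 came near it, with −0.97 on day 7 against day 5, at least 1.48-fold lower. Between the mixes B3GNT6 was higher on the 4-miRNA array, at least 1.18-fold.

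Enzymes that cap the chains with sialic acid, fucose or sulfate were under 2-fold apart where they were readable on all arrays. ST6GALNAC1, the sialyltransferase of goblet cells, read 3117, 3444, 3812 and 2778 on the 4-miRNA, 2-miRNA, control day 7 and control day 5 arrays, and FUT2, the secretor fucosyltransferase, read 1203, 1144, 1277 and 1248. FUT3, the Lewis fucosyltransferase, read 1614, 974, 1406 and 1167 in that order, and its difference between the mixes was 0.71. All genes of this list past 2-fold were under the median on at least 1 array. They were ST3GAL4 and ST6GALNAC4 on day 7 (2 of 11 readable, both lower), CHST5 on the 4-miRNA array against day 5 (1 of 11, higher) and, between the mixes, CHST5 higher with ST6GALNAC2 and GAL3ST2 lower (1 and 2 of 13). On the 2-miRNA array 0 of 13 passed 2-fold against day 5. For ST6GALNAC4 on day 7, 0 of 2 other readable probe sets had the same sign. They gave 1.80 and 1.72, from under the median of the day 5 control.

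Of 5 sheddases, the proteases that can release mucin ectodomains, ADAM9 read 7110 and 7017 on the 4-miRNA and 2-miRNA arrays, with 3690 for the day 7 control and 1790 for the day 5 control. That is 1.97, 1.95 and 1.03 above the day 5 control, but a second probe set, also readable on all arrays, differed by 0.12, 0.12 and −0.03, and another, readable on the day 5 control alone, lay on the other side with −1.48, −0.96 and −0.93. ADAM17, a main sheddase of MUC1, differed by 0.99, 0.63 and 0.55 and ADAM10 by 0.39, 0.44 and 0.10, and in each miRNA comparison 1 of the 2 other readable probe sets of either gene had the opposite sign. MMP14, a membrane-bound protease, was 127 for the 4-miRNA cells against 356 for the day 5 control (−1.28), while another probe set gave 1.86 from under the median of the control.

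Of 11 readable receptors and partners, 0 were 2-fold apart on day 7 or on the 4-miRNA array against day 5, and on the 2-miRNA array 1 was higher and 2 lower. MET, the receptor that MUC20 binds, read 13957, 13835, 6885 and 7763 on the 4-miRNA, 2-miRNA, control day 7 and control day 5 arrays, so its higher values lay on the miRNA arrays while those of MUC20 also took in the day 7 control. The difference of this probe set from the day 5 control was 0.84 for the 4-miRNA mix, and 0 of 3 other readable MET probe sets had the same sign. ERBB2, the partner of MUC4, read 582, 527, 864 and 849. CTNNB1, which encodes β-catenin, was higher on the 2-miRNA array by 1.30, and by 0.78 on a second readable probe set. On the 4-miRNA array the same probe sets were higher by 0.94 and 0.55. SRC, a kinase that phosphorylates the tail of MUC1, was lower on the 2-miRNA array by at least 2.60-fold. NHERF1, a scaffold of the apical membrane, was at −1.10 there on its single probe set. Between the mixes SRC and NHERF1 were the 2 past 2-fold, both higher on the 4-miRNA array, SRC by at least 2.65-fold and NHERF1 by 1.23. Another SRC probe set, readable on all arrays, read 121 for the 4-miRNA mix and 123 for the 2-miRNA mix, a difference of −0.02, and 1 of 2 other readable SRC probe sets had the same sign as the brightest. PDZK1 was under the median of every array.

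**Figure D5:**
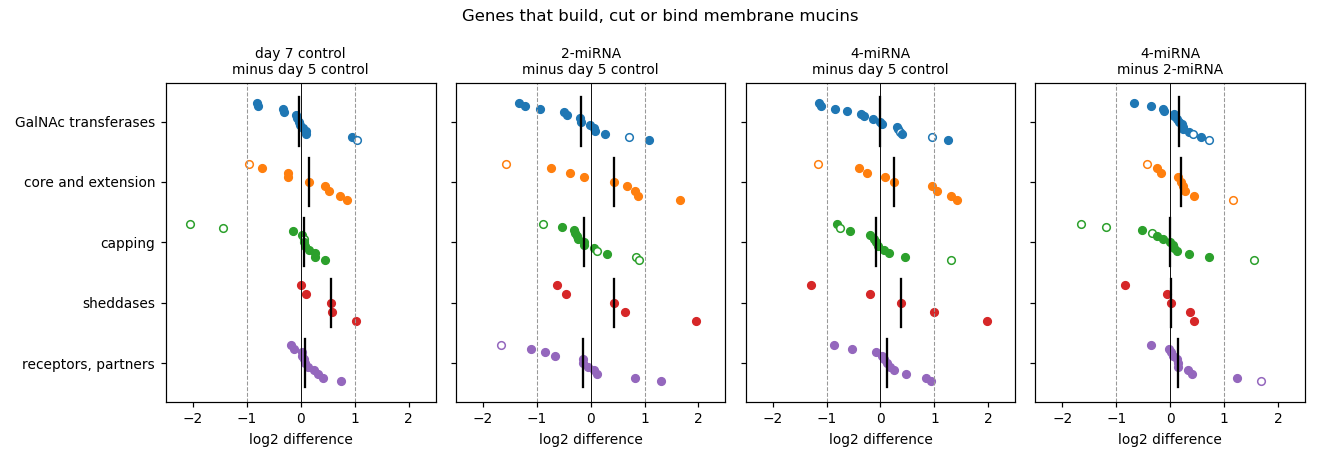
Log2 differences of the readable genes of 5 lists in the 4 comparisons, 1 point per gene by its brightest probe set, open where 1 of the arrays was under its median, with black bars at list medians and dashed lines at 2-fold. List medians stay between −0.17 and 0.55, and the outermost points differ from panel to panel, with ADAM9 the highest sheddase in the first 3.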

How the data were processed

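Total RNA of T84 cells was hybridised to Affymetrix U133 Plus 2.0 arrays, 1 per group. The deposited table holds a linear intensity per probe set, which the authors computed by MAS5 (per the submitters' processing notes). For MAS5, neither version nor target signal is stated there. Signals were multiplied per array to give a 2% trimmed mean of 500, 32 was added and log2 taken (Python 3.11.15, numpy 2.4.6, pandas 2.3.3). Names came from the platform annotation, updated by gene ID (41043 of 41097 probe sets with 1 symbol matched), and probe sets with several symbols (1801) were left out. A probe set was counted in a comparison when it reached the median of at least 1 of its 2 arrays. A fold with 1 side under the median is a lower bound. The threshold was 2-fold. The rule for naming took every member probe set, up to 4 list genes past 2-fold per list and comparison, largest first, and the 3 genes nearest to a mucin; levels of some other list genes were added after their values were seen. No replicate exists, so neither a test nor error between cultures can be given. The members and lists were chosen with earlier results of these data known. The steps were tested on simulated data. Alternatives changed the scaling, the pseudocount (16, or 4 times the one used), the limit for dim values and the probe sets used.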

Additional observations from a re-analysis of the deposited data

How the results depend on the processing

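Of the mucin probe sets at least 2-fold apart, none changed sign under any alternative, and those of MUC20 and of MUC13 stayed past 2-fold in every alternative that kept them, while 11 values of MUC4, MUC12 or MUC17 fell short of 2-fold without scaling or with 4 times the pseudocount. The sign of MUC1 213693_s_at and MUC13 218687_s_at between the mixes, each at 0.00, was −0.00 and −0.01 with quantile normalization. Running-median centring took MUC1 211695_x_at past 2-fold for the 4-miRNA mix (1.04; quantile 1.05), and MUC13 218687_s_at and MUC20 231941_s_at for the 2-miRNA mix (1.01 each). With deposited values and no scaling, the median of all readable probe sets was 0.57 and 0.56 on the 4-miRNA and 2-miRNA arrays against day 5, with 22.04% and 21.5% at least 2-fold higher and 0.0713% and 0.0875% lower, 7 mucin probe sets were at least 2-fold higher on the 2-miRNA array, 4 mucin genes on the 4-miRNA array and 1 on day 7, the day 7 median was 0.61, and 0 were lower between the mixes. Without scaling, 0.446% of all readable probe sets were higher on day 7 and 0.311% were lower between the mixes. With 4 times the pseudocount, 3 of 13 probe sets and 1 of 5 genes were higher on the 4-miRNA array. On day 7, 1 of 4 genes was higher, 0 were lower between the mixes and the day 7 median was 0.70. Of all readable probe sets, 5.15% were then higher on the 4-miRNA array and 1.48% on day 7. Between the mixes 0.180% were lower. With a pseudocount of 16, 1 of 14 probe sets (MUC4 1561785_at, at 1.02) was higher between the mixes, beside 3.54% of all readable probe sets. The limit at the 70th percentile left fewer, 7 probe sets and 3 genes. Taking only those readable on all arrays, a setting chosen after seeing the data, left 8 and 3. In both settings 3 probe sets and 1 gene were higher for the 4-miRNA mix, and 2 and 1 for the 2-miRNA mix. On day 7, 1 gene was higher, and 0 were lower between the mixes. Of all probe sets counted at the 70th percentile, 9.85%, 10.3% and 2.45% were higher for the 4-miRNA mix, the 2-miRNA mix and day 7. Another 0.511% were lower between the mixes. Among those readable on all arrays these shares were 7.79%, 8.11%, 1.82% and 0.433%. With no limit, 1 of 19 probe sets was lower on day 7 (MUC4 1561785_at), beside 7.66% of all, and the day 7 median was 0.66. Without _x_at and _s_at probe sets, 3 of 6 probe sets and 1 of 2 genes were higher on the 4-miRNA array. The share over all readable probe sets, 10.4%, was taken with those suffixes kept. Mucin medians were then 0.50 between the mixes and 1.73 on day 7. The other 155 counts and medians stayed within 1.5 times the reported count or within the probe-set SD. That SD was 0.58 for either mix against day 5, so medians could move much within it. The 2-miRNA median ran from 0.38 with no limit on dim values to 1.13 without scaling. The 4-miRNA median ran from 0.51 with 4 times the pseudocount to 1.09 without scaling. Variation between cultures was not measured, and signal near the array median limits MUC4, MUC12 and MUC17. No paired analysis was possible because each group has 1 array.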
